A study of Mus musculus with 24 samples.

Results

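H3K4me1 and H3K4me2 were compared in wild-type embryoid bodies, using the 4 peak lists of these marks out of 24 libraries in the series. Overlapping peaks of the 4 lists on chromosomes 1 to 19, X and Y were merged into 31417 regions, and a library had a region when 1 of its peaks overlapped it by at least 1 bp. Regions with a peak in both H3K4me1 lists and neither H3K4me2 list are called H3K4me1-only, and there were 3278 of them (10.4% of all regions). Regions with a peak in both H3K4me2 lists and neither H3K4me1 list are called H3K4me2-only, and there were 8431 (26.8%). Regions with a peak in all 4 lists numbered 2410 (7.67%). The other 17298 regions had mixed patterns, and 11601 of the 31417 regions had a peak in 1 list only.

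The series profiled PRDM16, H3K4me1 and H3K4me2 by CUT&RUN, in which an antibody tethers a nuclease to chromatin and the released fragments are sequenced. Its libraries come from mouse ES cells and from embryoid bodies at day 6 of differentiation, wild type or with a Prdm16 KO, 2 libraries per antibody, stage and genotype. Embryoid bodies are aggregates in which ES cells, grown without the signals that hold them in self-renewal, start to form cells of the germ layers. The 4 libraries described here are of the C57BL/6 background, wild type, day 6, and differ in the antibody: abcam ab8895 for H3K4me1 and millipore 07-030 for H3K4me2. The labels do not name the ES line or clone, and no label says that both libraries of a mark came from separate cultures. The p-values below therefore describe the spread among the 4 libraries, which could be purely technical. The titles place H3K4me2 replicate 2 in another library series (400-JX) than the other 3 libraries (329-BZ).

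Lysine 4 of histone H3 can carry 1, 2 or 3 methyl groups, and the states follow each other along active chromatin. Monomethylation, laid down largely by the enzymes KMT2C and KMT2D, is best known from enhancers and from the flanks of active promoters. Dimethylation is found at promoters and enhancers alike, next to the trimethylation that sits over active and CpG-rich starts. Promoters of vertebrate genes fall broadly into those in CpG islands, which keep CpG dinucleotides free of DNA methylation, and those poor in CpG.

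Promoters of 6 named regions are shown to let the CpG content of the 3 classes be read directly. For each class they are the 2 highest-ranked regions at gene ends in which a whole promoter window of a gene with 1 start lay under a peak of every list that defines the class. Each line gives bases -200 to -1 before the RefSeq start, 5′ to 3′ on the strand of the gene, from RefSeq on GRCm38.p6, and capitals mark CpG dinucleotides. Hes7 (chr11:69120253-69120452, plus strand) and Rcor2 (chr19:7267194-7267393, plus strand) lie in H3K4me1-only regions and hold 9 and 16 CpG. Slc16a14 (chr1:84935084-84935283, minus strand) and Tmem229a (chr6:24956126-24956325, minus strand) lie in H3K4me2-only regions and hold 10 and 18 CpG. Fam163a (chr1:156205027-156205226, minus strand) and Thsd7a (chr6:12749254-12749453, minus strand) lie in regions of all 4 lists and hold 8 and 13 CpG.
Hes7: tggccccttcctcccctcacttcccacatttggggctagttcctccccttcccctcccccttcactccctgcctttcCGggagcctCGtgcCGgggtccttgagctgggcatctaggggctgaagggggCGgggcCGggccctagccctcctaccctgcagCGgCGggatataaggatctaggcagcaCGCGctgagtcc
Rcor2: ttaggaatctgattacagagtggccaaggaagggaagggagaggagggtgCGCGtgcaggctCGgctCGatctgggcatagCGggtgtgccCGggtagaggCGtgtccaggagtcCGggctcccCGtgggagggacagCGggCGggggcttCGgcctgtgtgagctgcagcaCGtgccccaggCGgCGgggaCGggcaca
Slc16a14: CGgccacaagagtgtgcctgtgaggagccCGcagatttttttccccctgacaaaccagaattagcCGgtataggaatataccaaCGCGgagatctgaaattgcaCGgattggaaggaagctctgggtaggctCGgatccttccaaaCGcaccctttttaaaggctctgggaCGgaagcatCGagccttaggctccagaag
Tmem229a: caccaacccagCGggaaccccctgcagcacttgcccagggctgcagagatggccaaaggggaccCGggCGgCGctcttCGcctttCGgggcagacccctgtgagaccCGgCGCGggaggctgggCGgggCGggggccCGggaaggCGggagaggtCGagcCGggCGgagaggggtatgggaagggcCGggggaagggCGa
Fam163a: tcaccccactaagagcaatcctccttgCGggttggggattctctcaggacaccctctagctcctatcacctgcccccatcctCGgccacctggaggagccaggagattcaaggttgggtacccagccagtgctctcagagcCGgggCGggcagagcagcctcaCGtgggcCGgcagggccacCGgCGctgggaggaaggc
Thsd7a: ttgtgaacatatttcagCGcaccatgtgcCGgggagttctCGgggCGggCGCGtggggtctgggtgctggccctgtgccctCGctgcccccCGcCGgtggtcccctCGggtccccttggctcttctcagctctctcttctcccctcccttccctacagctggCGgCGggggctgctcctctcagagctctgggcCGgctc
These 6 promoters do not separate by class in their CpG counts, and the counts over all promoters are given further down.

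H3K4me2 peaks were wider than H3K4me1 peaks, and more of them lay at gene ends. The H3K4me1 lists held 14082 and 13260 peaks (replicates 1 and 2) and the H3K4me2 lists 14334 and 19246. The depth of the libraries is unknown, as no read totals were analysed here, and a difference in peak number cannot be told apart from one in depth. The H3K4me2 lists were both longer than the H3K4me1 lists, but H3K4me2 replicate 1 held only slightly more peaks than H3K4me1 replicate 1. The means were 13671 ± 581 and 16790 ± 3473 peaks (SD, n = 2 each), a log2 ratio of 0.28 (two-sided exact permutation p = 0.333). Without H3K4me2 replicate 2 that log2 ratio was 0.07, with a lone H3K4me2 library and hence no spread for that mark. With 2 libraries per mark 0.333 is the smallest p this test can give, and it was the p of all 14 measures compared per library, before and after Benjamini-Hochberg adjustment.

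The base pairs under peaks were 31.3 and 26.2 Mb for H3K4me1 and 47.7 and 62.6 Mb for H3K4me2. H3K4me2 thus covered 1.92-fold more sequence (28.8 ± 3.62 against 55.1 ± 10.6 Mb, SD, n = 2 each), and the marks did not overlap. The median peak was 1803 and 1515 bp wide for H3K4me1, and 3147.5 and 3013 bp for H3K4me2. H3K4me2 peaks were 1.86-fold wider (1659 ± 204 against 3080 ± 95.1 bp, SD, n = 2 each; exact permutation p = 0.333). Peaks over 4 kb made up 13.4% and 10.9% of the H3K4me1 lists and 31.5% and 32.0% of the H3K4me2 lists. The widest peaks were of like size, 7965 and 7871 bp for H3K4me1 and 8391 and 8714 bp for H3K4me2.

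The marks also differed in location. A gene end here is the first or last base of a RefSeq protein-coding gene, of which there are 21887, and a peak is at a gene end when it lies within 2500 bp of one. Peaks at gene ends were 24.4% and 24.1% of the H3K4me1 lists, and 69.0% and 56.8% of the H3K4me2 lists (24.3 ± 0.220% against 62.9 ± 8.61%, SD, n = 2 each; exact permutation p = 0.333). The H3K4me1 lists were nearly equal in this share, and the H3K4me2 lists differed more from each other but both lay well above. The difference between marks was 38.6 percentage points with all libraries, 32.5 without H3K4me2 replicate 1 and 44.7 without H3K4me2 replicate 2. The median H3K4me1 peak lay 20668 and 20560.5 bp from the nearest gene end, while the median H3K4me2 peak overlapped one in both lists. Peaks over 50 kb from any gene end were 31.1% and 30.7% of the H3K4me1 lists, and 9.95% and 13.5% of the H3K4me2 lists. In turn 3869 and 3554 genes had an H3K4me1 peak at an end, and 11182 and 12148 genes had an H3K4me2 peak there.

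**Figure D1:**
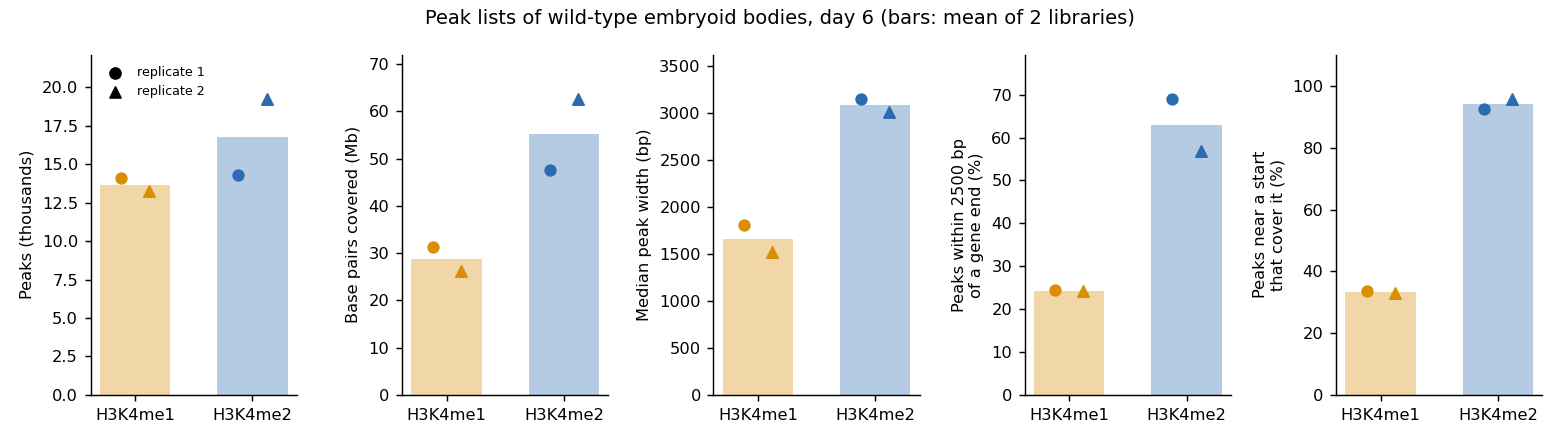
Peaks, base pairs covered, median peak width, share of peaks within 2500 bp of a gene end, and share of peaks near a start that cover it, for H3K4me1 (orange) and H3K4me2 (blue) in wild-type embryoid bodies. Points are libraries and bars are means of 2 libraries; in each panel both H3K4me2 points lie above both H3K4me1 points, with median widths of 3147.5 and 3013 bp against 1803 and 1515 bp.

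The replicates of H3K4me2 shared more peaks than those of H3K4me1. Of the peaks of H3K4me2 replicate 1, 93.8% overlapped a peak of replicate 2, and in the other direction 69.5% did. For H3K4me1 these shares were 53.1% and 57.2%. Between the marks, 28.8% of the peaks of either H3K4me1 list overlapped H3K4me2 replicate 1, and 43.3% and 43.8% overlapped the longer list of H3K4me2 replicate 2. H3K4me1 peaks thus overlapped those of the other H3K4me1 library more often than those of either H3K4me2 library. Regions of a lone list numbered 4367 and 3731 for H3K4me1 replicates 1 and 2, 532 for H3K4me2 replicate 1 and 2971 for H3K4me2 replicate 2. No peak had the same coordinates in any pair of the 4 lists.

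The number of H3K4me1-only regions depended on which libraries were required. It was 7146 without H3K4me1 replicate 1 and 7692 without H3K4me1 replicate 2, since 1 list then sufficed. It was 4921 without H3K4me2 replicate 2, the library of the other series, and 3467 without H3K4me2 replicate 1. The H3K4me2-only regions ranged from 9150 to 11462 over the same 4 omissions. Regions of all 4 lists became 3797 without H3K4me1 replicate 2 and 4028 without H3K4me2 replicate 1. The classes are therefore sets fixed by these 4 lists, and their sizes do not measure the amount of either mark.

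The classes differed in where they lay. Of the H3K4me1-only regions, 520 of 3278 were at a gene end (15.9%, 95% Wilson interval 14.7 to 17.2%), 44.1% lay inside a gene away from its ends, and the other 1312 regions lay outside protein-coding genes. Of the H3K4me2-only regions, 6677 of 8431 were at a gene end (79.2%, 78.3 to 80.0%), 11.2% inside a gene and 9.57% outside. Regions of all 4 lists stood between them, with 1124 of 2410 at a gene end (46.6%, 44.7 to 48.6%), close to the 40.9% of all regions. The share at gene ends was 63.3 percentage points higher in H3K4me2-only than in H3K4me1-only regions (61.8 to 64.8). These intervals cover counting error only, since regions are not replicates. Without H3K4me2 replicate 1 the difference was 50.1 points.

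RefSeq starts, known for 17492 genes at 21263 positions, were covered unequally by the classes. Only 150 H3K4me1-only regions (4.58%) covered a start, against 5451 H3K4me2-only regions (64.7%) and 849 regions of all 4 lists (35.2%). The median H3K4me1-only region lay 29794.5 bp from a gene end, the median region of all 4 lists 5675.5 bp, and the median H3K4me2-only region overlapped a gene end. Regions over 50 kb from any gene end made up 37.4% of the H3K4me1-only class, 5.24% of the H3K4me2-only class and 20.8% of the regions of all 4 lists. Few H3K4me1-only regions lay directly beside an H3K4me2 region: 0.732% had a region with a peak in both H3K4me2 lists within 1 kb, 5.83% within 5 kb and 27.0% within 20 kb. For H3K4me2-only regions, the shares with a region of both H3K4me1 lists at these distances were 0.391%, 2.72% and 13.6%.

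Width followed location in each class. H3K4me1-only regions had a median width of 2372.5 bp, H3K4me2-only regions of 3685 bp and regions of all 4 lists of 4643.5 bp, beside 2729 bp over all regions. Within the H3K4me1-only class, regions at gene ends had a median of 3409 bp, those inside genes 2427 bp and those outside genes 2038 bp. The medians were 3842, 3357 and 2467 bp in the H3K4me2-only class, and 5405.5, 4112 and 3857.5 bp in regions of all 4 lists. Gene-end regions were thus the widest within each class. Regions of 6 kb or more were 3.81% of H3K4me1-only, 10.6% of H3K4me2-only and 24.2% of regions of all 4 lists; a region merged from more lists is wider by construction.

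**Figure D2:**
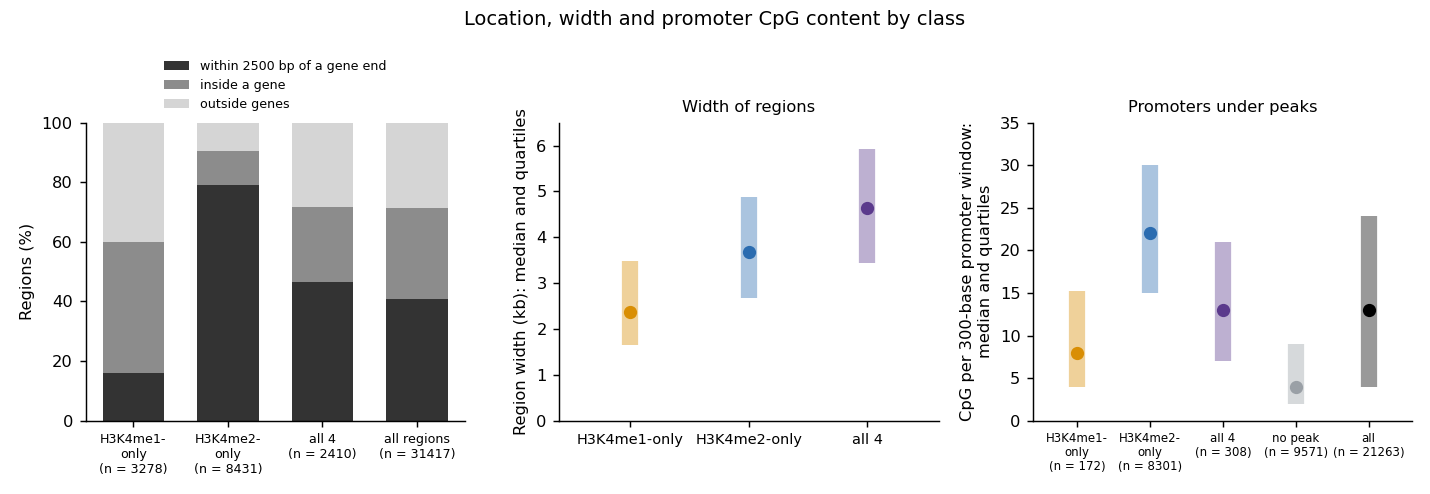
Location of the regions of each class and of all regions (left, stacked shares), their width in kb (middle) and the CpG count of 300-base promoter windows under each pattern (right), where dots are medians and bars run from the lower to the upper quartile. The gene-end share was 15.9% in H3K4me1-only, 79.2% in H3K4me2-only and 46.6% in regions of all 4 lists, and median CpG counts were 8, 22 and 13.

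Scores rank peaks within a list and are the authors' own values, with a unit not given in the sources used here. As a percentile within its list, the median H3K4me1-only region ranked at 58.4 and 56.8 in the H3K4me1 lists, and the median H3K4me2-only region at 56.1 and 68.5 in the H3K4me2 lists. Regions of all 4 lists ranked at 71.0 and 70.6 in the H3K4me1 lists but at 42.1 and 54.3 in the H3K4me2 lists. In the H3K4me1 lists 22.3% and 22.8% of them were among the highest-scoring 10% of peaks, against 9.59% and 10.8% in the H3K4me2 lists. Regions of all 4 lists thus ranked above H3K4me1-only regions in the H3K4me1 lists, and at middle rank in the H3K4me2 lists. Each region took the highest rank among the peaks of a list that overlapped it. Regions of all 4 lists are wider and can hold more peaks, and the part of width in these ranks was not tested.

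The gene-end share went up with score rank in the H3K4me2-only class and showed no such order in the H3K4me1-only class. From the lowest to the highest quintile of score rank in H3K4me2-only regions, 58.3, 74.7, 84.6, 88.1 and 90.3% were at a gene end. The quintiles of regions of all 4 lists gave 38.4, 42.1, 45.6, 52.9 and 54.1%. The quintiles of H3K4me1-only regions gave 14.8, 12.7, 17.8, 16.2 and 17.8%. These shares are descriptions over regions, and no test was made of them.

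Around starts the marks had different shapes. A peak covered the start itself at 4.67% and 4.20% of the 21263 starts in the H3K4me1 lists, and at 44.7% and 50.2% in the H3K4me2 lists. H3K4me1 coverage rose into the gene, to 6.85% and 5.71% at 1000 bp downstream, and its maxima lay 1000 and 1100 bp downstream. H3K4me2 coverage was highest 400 and 300 bp downstream and had dropped slightly to 44.1% and 47.9% at 1000 bp. The coverage at 1000 bp downstream over that at the start was 1.47 and 1.36 for H3K4me1 and 0.985 and 0.953 for H3K4me2 (1.41 ± 0.0755 against 0.969 ± 0.0225, SD, n = 2 each; exact permutation p = 0.333). H3K4me1 thus dipped at the start and H3K4me2 did not, in both libraries of each mark. Upstream, H3K4me1 had a smaller maximum of 5.07% and 4.39% at 600 and 500 bp before the start.

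The same difference was seen peak by peak. Of peaks within 2500 bp of a start, 33.7% of 2532 and 33.0% of 2355 H3K4me1 peaks covered it, and 92.6% of 8269 and 95.8% of 8903 H3K4me2 peaks did. The means were 33.4 ± 0.489% and 94.2 ± 2.26% (SD, n = 2 each; exact permutation p = 0.333), with no overlap between the marks. H3K4me2 peaks are also wider, and the part of width in this share was not tested.

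Starts within regions of all 4 lists were read in the same way. At the 1059 starts in regions of all 4 lists, H3K4me1 peaks covered 36.2% and 31.3% of starts and 55.0% and 47.1% of positions 1000 bp downstream. H3K4me2 peaks covered 94.7% and 98.4% of these starts and 93.8% and 96.4% of the downstream positions. H3K4me1 peaks thus covered fewer of these starts than of the positions downstream, in both libraries. The 184 starts in H3K4me1-only regions give no such comparison, since a start lies in such a region only where an H3K4me1 peak covers it.

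**Figure D3:**
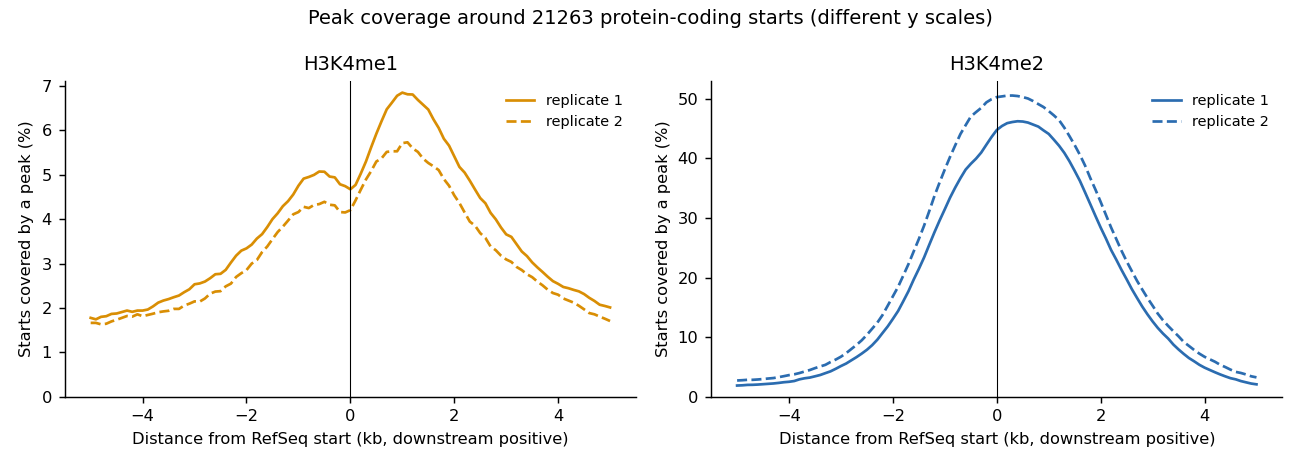
Percent of 21263 RefSeq starts covered by a peak (y axis, a different scale for each mark) at each distance from the start (x axis, kb, downstream positive), for H3K4me1 (left) and H3K4me2 (right); lines are libraries. Both H3K4me1 curves are lower at the start (4.67% and 4.20%) than 1000 bp downstream (6.85% and 5.71%), whereas both H3K4me2 curves have their maximum within 400 bp of the start.

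In regions of all 4 lists the wider mark was not the same at and away from gene ends. Peaks covered a median of 2779.5 and 2255.5 bp of these regions in the H3K4me1 lists and 3188.5 and 3587 bp in the H3K4me2 lists. At gene ends, both H3K4me2 lists covered more base pairs than both H3K4me1 lists in 907 of 1124 regions (80.7%), and the reverse held in 63 (5.60%). Away from gene ends, H3K4me1 was the wider mark in 556 of 1286 regions (43.2%) and H3K4me2 in 308. H3K4me2 was thus most often the wider mark at gene ends, which include both ends of a gene. Away from gene ends H3K4me1 was wider in more regions than H3K4me2, though neither order held in most of these regions.

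The strand of 17492 genes allowed the 2 ends of a gene to be set apart. The end with the start had a peak within 2500 bp in 13.6% and 12.5% of genes in the H3K4me1 lists and in 48.8% and 52.3% in the H3K4me2 lists. The far end had one in 5.99% and 5.48% of genes for H3K4me1 and in 10.9% and 14.1% for H3K4me2. The start end was therefore marked 2.28 and 2.27 times as often as the far end by H3K4me1, and 4.47 and 3.71 times as often by H3K4me2.

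Promoter sequence also differed between the marks. RefSeq promoter windows of 300 bases (250 before to 50 after the start) were grouped by the lists with a peak over them. The 8301 windows with both H3K4me2 lists and neither H3K4me1 list held a median of 22 CpG, and the 172 windows with the reverse pattern held 8. The 308 windows with all 4 lists held 13, the 9571 windows with no peak held 4, and the median over all 21263 windows was 13. Per library the median was 12 and 12 CpG under H3K4me1 peaks and 22 and 21 under H3K4me2 peaks (exact permutation p = 0.333, n = 2 each). Windows with an observed-over-expected CpG ratio above 0.6 were 78.4% of the H3K4me2-only windows, 40.9% of those with all 4, 23.8% of H3K4me1-only windows and 19.1% of those with no peak, beside 47.6% of all windows. The median ratio was 0.366 in H3K4me1-only, 0.794 in H3K4me2-only and 0.228 in unmarked windows. The GC content of H3K4me1-only windows (median 57.7%) was nearer to that of H3K4me2-only windows (62.3%) than to that of unmarked ones (49.0%).

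Short motifs were searched in the same windows on both strands. The TATA motif TATAAA was found in 7.56% of H3K4me1-only windows, 5.63% of H3K4me2-only windows, 8.12% of windows with all 4 and 20.2% of windows with no peak, beside 12.6% of all windows. The GC box GGGCGG, which itself contains a CpG, was found in 39.0%, 68.5%, 54.5% and 22.8%, beside 46.2% of all. The motif CCAAT was found in 34.3%, 37.5%, 28.6% and 39.5%, beside 38.2% of all. The share with TATAAA was thus below that of all windows under each of the 3 patterns, and the shares with CCAAT lay closer together. A match describes these letters only and is not a binding site.

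The X chromosome held few H3K4me1 peaks. It carried 177 of 14082 and 118 of 13260 H3K4me1 peaks (1.26% and 0.890%), and 489 of 14334 and 602 of 19246 H3K4me2 peaks (3.41% and 3.13%). The means were 1.07 ± 0.260% and 3.27 ± 0.200% (SD, n = 2 each; exact permutation p = 0.333), while 966 of the 21887 protein-coding genes (4.41%) lie on X. The difference held at gene ends, where X carried 1.54% and 1.00% of H3K4me1 peaks and 3.77% and 3.90% of H3K4me2 peaks. It also held away from gene ends, with 1.17% and 0.855% against 2.61% and 2.12%. By class, X held 30 of the H3K4me1-only regions (0.915%), 396 of the H3K4me2-only regions (4.70%) and 16 of the regions of all 4 lists (0.664%). The labels give no sex for these cells, and the share of mapped reads on X was not analysed here. In libraries that the classes did not use the share was 0.935 ± 0.354% for H3K4me1 and 2.80 ± 0.0821% for H3K4me2 in Prdm16 KO embryoid bodies, and 1.02 ± 0.0470% and 2.44 ± 0.0611% in wild-type ES cells (SD, n = 2 each).

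The classes were then read in libraries that had no part in defining them, from embryoid bodies of the same day with the Prdm16 KO and from wild-type ES cells. In the KO embryoid bodies 33.5% and 24.8% of the H3K4me1-only regions had an H3K4me1 peak, and 6.99% and 5.22% had an H3K4me2 peak. Of the H3K4me2-only regions 88.5% and 85.4% had an H3K4me2 peak there, and 5.78% and 3.39% an H3K4me1 peak. The class thus went with the mark in both directions, but H3K4me2-only regions were found again far more often. The KO H3K4me1 lists are short, with 8943 and 5990 peaks, against 15205 and 13818 in the KO H3K4me2 lists. Over all 31417 regions the shares were 16.6 ± 3.97% for H3K4me1 and 41.8 ± 1.85% for H3K4me2 (SD, n = 2 each).

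In wild-type ES cells H3K4me2-only regions again had H3K4me2 peaks (87.5% and 86.1%), while 20.1% and 16.8% had H3K4me1 peaks. The H3K4me1-only regions of embryoid bodies had an H3K4me1 peak in 19.8% and 17.0% of cases and an H3K4me2 peak in 14.9% and 12.6%. Their H3K4me1 share was thus below that of all regions in ES cells (21.6 ± 2.09%, SD, n = 2), and most of these regions had no H3K4me1 peak in either ES list. Regions of all 4 lists had H3K4me1 peaks in 49.1% and 45.1% and H3K4me2 peaks in 70.2% and 68.0%. Each difference between the marks in these 2 sets gave an exact permutation p of 0.333, the smallest possible.

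The full pattern of 4 lists recurred unevenly. The H3K4me2-only pattern recurred in 6328 of 8431 regions (75.1%) in KO embryoid bodies and in 5033 (59.7%) in ES cells. The H3K4me1-only pattern recurred in 437 of 3278 regions (13.3%) and in 175 (5.34%), and 1814 (55.3%) and 2326 (71.0%) of these regions had no peak of either mark there. A full switch to the opposite pattern was rare: 32 and 90 H3K4me1-only regions, and 13 and 40 H3K4me2-only regions. All 4 peaks recurred in 466 of 2410 regions (19.3%) in KO embryoid bodies and in 740 (30.7%) in ES cells.

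**Figure D4:**
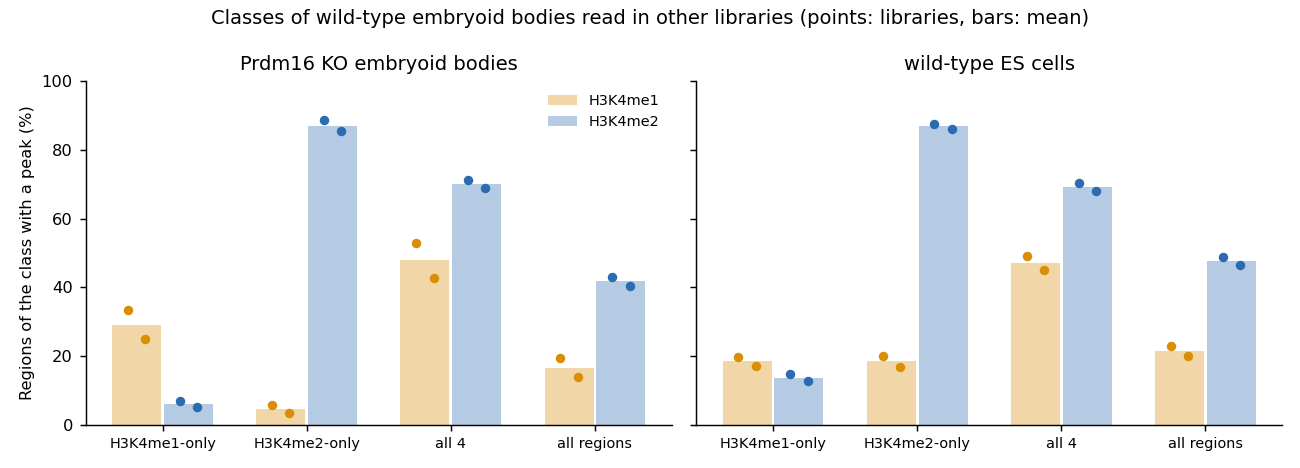
Percent of the regions of each class, and of all regions, with an H3K4me1 (orange) or H3K4me2 (blue) peak in libraries that did not define the classes: Prdm16 KO embryoid bodies (left) and wild-type ES cells (right). Points are libraries and bars are means of 2; H3K4me2-only regions had an H3K4me2 peak in 85.4 to 88.5% of cases, and H3K4me1-only regions an H3K4me1 peak in 17.0 to 33.5%.

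The contrast in location was present in each of these sets as well. Peaks at gene ends were 23.0% and 24.7% of the H3K4me1 lists and 71.9% and 72.6% of the H3K4me2 lists in KO embryoid bodies. In ES cells they were 29.9% and 30.8% against 47.2% and 49.3%. H3K4me2 peaks were the wider ones in each set too, with medians of 2331 and 2606 bp against 1533 and 1789.5 bp in KO embryoid bodies and 2253 and 2208 bp against 1868 and 2172 bp in ES cells. In ES cells the width of H3K4me1 replicate 2 came close to those of the H3K4me2 lists.

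Named regions are the highest-ranked of each class by the lower of their score ranks, leaving out those with a PRDM16-antibody peak in a Prdm16 KO library. The leading H3K4me1-only region at gene ends (chr4:152289597-152295045) lies over an end of Hes3 and within 2500 bp of the start of Icmt, with scores of 256.07 and 199.95 in the H3K4me1 lists. Hes3 is a basic helix-loop-helix repressor of the Hes family, and Icmt methylates prenylated proteins. None of the 8 H3K4me lists of KO embryoid bodies and wild-type ES cells had a peak there. Next came Hes7 (chr11:69118928-69122142), a Hes repressor known from the segmentation clock of somites, with scores of 214.01 and 175.59. The Hes7 region had an H3K4me1 peak in both KO embryoid body lists and both ES lists, and an H3K4me2 peak in none of these sets.

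The other 8 regions of this group lay at Pim3, Adtrp, Cacna1a, Bicra, Rcor2, Cdk5 with Slc4a2, Siah2 and Nxph1. Cacna1a, a calcium channel subunit, Bicra, a subunit of a BAF chromatin remodelling complex, and Siah2, a ubiquitin ligase, kept the pattern of both H3K4me1 and no H3K4me2 peaks in both sets. Rcor2, a corepressor that works with the H3K4 demethylase LSD1, had scores of 193.92 and 155.12 in wild-type embryoid bodies (chr19:7263283-7268335). It had peaks of both marks in all 4 KO embryoid body lists and of neither mark in ES cells. Pim3, a serine/threonine kinase, and Nxph1, a neurexin ligand, had peaks of both marks in all 8 lists, so that the lack of H3K4me2 peaks there was seen in wild-type embryoid bodies and not in these other lists. Adtrp had a peak in none of the 8.

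The leading H3K4me2-only regions at gene ends lay at Sntg1, Thrb, Slc6a15, Slc16a14, Ncam1, Arpp21, Tmem229a, Kcnd2, Cadps and Ttll4. Sntg1, a syntrophin (chr1:9298130-9300997), had scores of 522.62 and 952.88 in the H3K4me2 lists. Thrb, a thyroid hormone receptor (chr14:17659036-17662399), had scores of 588.82 and 823.91. Ncam1, a neural cell adhesion molecule (chr9:49796233-49799608), had scores of 462.05 and 847.5, and Kcnd2, a potassium channel (chr6:21213455-21216574), had scores of 429.89 and 874.94. Each of the 10 regions had an H3K4me2 peak in all 4 H3K4me2 lists of KO embryoid bodies and ES cells, and none had an H3K4me1 peak in the KO embryoid bodies. In ES cells, however, the Ncam1 region had an H3K4me1 peak in both lists. Those at Thrb, Slc6a15, Tmem229a and Kcnd2 had one in 1 ES list each, and the others in neither.

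The leading regions of all 4 lists at gene ends lay at Tmem178b, Dysf, Tmtc1, Fam163a, Kcna1, Glis3, Thsd7a, Ucn with Trim54 and Mpv17, Adcyap1 and Wnt7a. Dysf, a protein of membrane repair in muscle (chr6:84007662-84013569), had scores of 275.96 and 240.05 for H3K4me1 and of 375.04 and 599.85 for H3K4me2. Its peaks covered 4980 and 5654 bp in the H3K4me1 lists and 4602 and 4854 bp in the H3K4me2 lists, so H3K4me1 was the wider mark there. At Tmtc1, an O-mannosyltransferase, the order was the opposite, with 2510 and 2204 bp against 4601 and 4482 bp. Wnt7a, a Wnt ligand (chr6:91408238-91412428), had scores of 176.63 and 171.85 for H3K4me1 and of 263.58 and 584.43 for H3K4me2. Tmem178b, Dysf, Tmtc1, Glis3 and the Ucn region had peaks in all 8 lists of the other sets.

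Over 50 kb from any gene end, the leading H3K4me1-only regions were nearest to Cntnap5a, Rgma, Creb5, Ulk4 and Oxgr1. The region nearest to Cntnap5a (chr1:116365452-116369060, inside the gene) lay 218263 bp from its end and had scores of 265.63 and 239.97. None of these 5 regions had an H3K4me2 peak in KO embryoid bodies or ES cells, and each had at most 1 H3K4me1 peak in the 4 H3K4me1 lists there. Leading distal H3K4me2-only regions were nearest to Tenm3, Gdi2, Fgf12 and Crisp4, the first at 1391547 bp. Each of these had an H3K4me2 peak in all 4 H3K4me2 lists of the other sets. The Fgf12 region (chr16:28444030-28448384) holds a RefSeq start of that gene, so it is distal only by the gene's outer ends. The leading distal regions of all 4 lists were nearest to Commd3, Spry2, Zfp608, Cdh13 and Abca1, and those nearest to Spry2, Zfp608 and Cdh13 had peaks in all 8 other lists. The nearest gene is a position only and need not be the gene a region acts on.

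The widest H3K4me1-only region (chr17:23673652-23685479, 11828 bp) spans Cldn6, Cldn9, Hcfc1r1, Thoc6 and Tnfrsf12a. Cldn6 and Cldn9 are claudins of tight junctions. Peaks covered 11801 and 9097 bp of it in the H3K4me1 lists. Among the next widest were regions at Map6, Greb1l and En2. The widest H3K4me2-only region (chr4:136170410-136182201, 11792 bp) lies at E2f2, a cell cycle transcription factor, and the next at Fmnl1 with Efcab15, Mycn, Edem1 with Arl8b, and Zyx with Epha1. H3K4me2 scores were also low at Mycn (52.86 and 55.43) and Zyx (62.48 and 52.63), and higher at E2f2 (128.72 and 180.03). The widest region of all 4 lists (chr12:8911034-8925691, 14658 bp) lies at Laptm4a, followed by Cul9 with Srf, Mmp15 with Usb1, Add3 and Setd7. The width of a region is that of the merged peaks: at Laptm4a no list covered more than 7219 bp.

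Genes were sorted by the lists with a peak within 2500 bp of either end. The lists could thus mark different ends, and a gene with all 4 lists need not hold a region of all 4 lists. At Kmt2a, Gata5 and Foxa3, named below, no single end had all 4. These genes and Bmi1 had no region of all 4 lists within the gene or 50 kb of it. Both H3K4me1 lists and neither H3K4me2 list marked 424 of 21887 protein-coding genes (1.94%), and both H3K4me2 lists and neither H3K4me1 list marked 7284 (33.3%). All 4 lists marked 1385 genes (6.33%), and 8159 (37.3%) had no peak in any list. The first number rests on both H3K4me1 lists: it was 791 without H3K4me1 replicate 1, 775 without H3K4me1 replicate 2 and 670 without H3K4me2 replicate 2. Genes with H3K4me1 alone had a median length of 11.6 kb and those with no peak 7.20 kb, while genes with H3K4me2 alone (27.2 kb) and with all 4 (26.8 kb) were longer than the 17.2 kb of all genes.

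Lists of named genes were read against these shares, with no test. The Notch pathway, in which ligands of one cell activate receptors of its neighbour and thereby Hes and Hey repressors, had 4 of 20 genes with H3K4me1 alone, beside 1.94% of all genes. These were the ligand Dll1 and the repressors Hes1, Hes3 and Hes7. Dll1 had scores of 107.36 and 85.23 and 3245 and 3148 bp of H3K4me1 peaks in its end windows. Hes1, the broadly expressed repressor of the family, had scores of 66.09 and 91.35. The ligand Jag2 and the repressors Hey1 and Heyl had H3K4me2 alone, with scores of 202.56 and 204.09 at Hey1, and the receptor Notch1 and the glycosyltransferase Mfng had all 4. Of the 20 genes, 11 (55%) had an H3K4me1-only region within the gene or 50 kb of it, beside 20.4% of all genes. This was not particular to the Notch list. The share was 52.4% in both the ribosomal protein and the Polycomb list and 50% in the trophoblast list.

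Genes of the pluripotent state had H3K4me2 without H3K4me1 in 4 of 15 cases, beside 33.3% of all genes: Klf2, Klf5, Tfcp2l1 and Nr0b1. Tfcp2l1, a factor of naive self-renewal, had H3K4me2 scores of 216.51 and 284.85, and Nr0b1, a nuclear receptor on X, of 120.34 and 469.58. Prdm14, a regulator of the naive state and germ line, had peaks in all 4 lists, of 4543 and 4625 bp for H3K4me1 and 4827 and 4737 bp for H3K4me2. None of these 15 genes had H3K4me1 alone, but only 1.94% of all genes did, so 15 genes are too few to show a difference. None of the 10 primed epiblast genes had any of the 3 patterns. Over all genes these were 1.94% for H3K4me1 alone, 33.3% for H3K4me2 alone and 6.33% for all 4.

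Of 22 neuroectoderm genes 12 had no peak, beside 37.3% of all genes, Sox3 had H3K4me1 alone and Nes had all 4. Only 1 of the 22 (4.55%) had peaks in both H3K4me2 lists, beside 49.1% of all genes. Low shares were also found in other lists: 10% of primed epiblast, 10.3% of Hox, 11.1% of cardiac and 16.7% of mature tissue genes. Of 17 genes of primitive streak and mesoderm, Mesp1, Lhx1, Cdx1 and Cdx4 had H3K4me2 alone, beside 33.3% of all genes, and 5 had no peak. Snai1, the repressor of epithelial genes at gastrulation, had H3K4me1 alone, over 7265 and 7185 bp but with scores of 53.64 and 54.58, just above the floor of 50. Of 15 blood and endothelial genes 8 (53.3%) had no peak, beside 37.3% of all genes. Etv2, Erg and Spi1 had H3K4me2 alone (3 of 15, beside 33.3%), and Hhex and Kdr, the VEGF receptor of early mesoderm, had all 4.

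Kdr was covered over 1720 and 1145 bp by H3K4me1 and over 3684 and 3118 bp by H3K4me2 peaks. Among endoderm genes Foxa3 and Sox7 had all 4 lists, and Apoa1 had H3K4me2 alone. Sox7, a transcription factor of primitive endoderm and endothelium, had scores of 122.37 and 81.82 for H3K4me1 and of 128.57 and 142.17 for H3K4me2. Of 18 cardiac genes 11 (61.1%) had no peak, beside 37.3% of all genes, the sarcomere gene Tnnt2 had H3K4me1 alone, Nkx2-5 had H3K4me2 alone and Gata5 had all 4. Among 8 trophoblast genes Tead4, Ascl2 and Krt7 had these patterns in the same order. Of 39 Hox genes 22 (56.4%) had no peak, beside 37.3% of all genes. Hoxc13 and Hoxd4 had H3K4me2 alone (5.13%, beside 33.3% of all genes) and Hoxd1 had all 4. In H3K4me2 replicate 1 the scores of Hoxc13 (50.14) and Hoxd1 (50.53) were at the floor of 50.

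Peaks do not report RNA, so the label of the cells could not be checked through expression. Markers with no peak in any of the 4 lists included Sox2 and Otx2 as well as Sox1, Pax6, Foxa2 and Afp. The same held for Rplp0 and Polr2a, which every cell uses, so the lack of a peak was not read as lack of the mark. Genes of other cells the sample could hold were read in the same way. Of 12 fibroblast or feeder genes Col1a2, Thy1 and Vim had all 4 lists, Col1a1 and Pdgfrb had H3K4me2 alone (16.7%, beside 33.3% of all genes), and Col3a1, Lum, S100a4 and Postn had no peak. Of 12 genes of mature tissues Ckm and Sftpc had H3K4me2 alone (16.7%) and 6 had no peak.

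Of 16 housekeeping genes 6 had H3K4me2 alone, beside 33.3% of all genes: Tbp, Hprt, Ppia, B2m, Sdha and Psmb2. Gapdh and Actb, of glycolysis and the cytoskeleton, had H3K4me1 alone. Gapdh had H3K4me1 scores of 78.74 and 137.32 over 2802 and 2170 bp, and Actb of 79.30 and 183.26 over 3626 and 3531 bp. Of 21 ribosomal protein genes 6 had H3K4me2 alone, or 28.6% beside 33.3% of all genes (Rpl5, Rpl11, Rpl13, Rpl27, Rps6 and Rps23) and Rpl19 and Rps18 had H3K4me1 alone. Rpl5 had H3K4me2 scores of 316.56 and 340.55.

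Of 20 genes for enzymes that write or erase H3K4 methylation and their partners, 8 had H3K4me2 alone, beside 33.3% of all genes. Both H3K4me2 lists marked 10 of the 20, near the 49.1% of all genes. Those with H3K4me2 alone were the methyltransferases Kmt2c and Kmt2d, their complex partners Rbbp5, Paxip1 and Ncoa6, and the demethylases Kdm1a, Kdm1b and Kdm5c. Kmt2c had H3K4me2 scores of 215.76 and 245.63 and Kdm5c of 193.43 and 486.77. Kmt2e had H3K4me1 alone (93.05 and 66.16), and Kmt2a had all 4, though not at the same end. Of 21 Polycomb genes 7 had H3K4me2 alone, beside 33.3% of all genes, among them Suz12 (251.38 and 421.42), Eed, subunits of the complex that methylates H3K27, and Rnf2. Jarid2 and Ring1 had H3K4me1 alone, and Bmi1 had all 4.

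**Figure D5:**
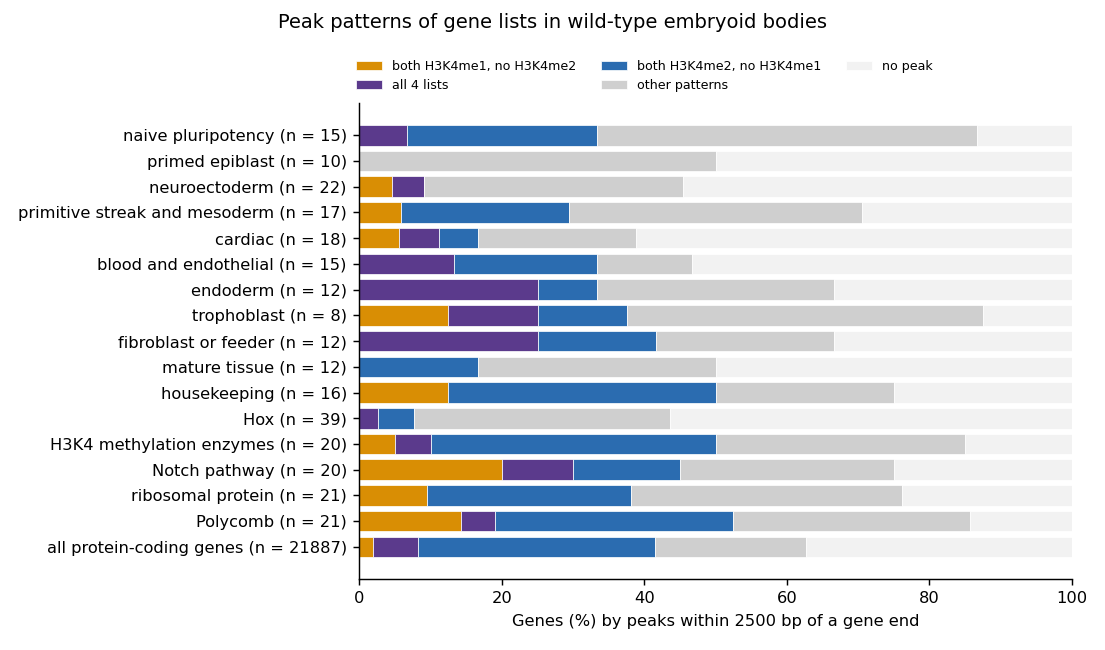
Percent of the genes of each list (rows, with the number of genes) by peak pattern within 2500 bp of a gene end in wild-type embryoid bodies; the bottom row is all 21887 protein-coding genes. H3K4me1 alone (orange) was found in 4 of 20 Notch pathway genes beside 1.94% of all genes. No peak was found at 12 of 22 neuroectoderm and 11 of 18 cardiac genes, beside 37.3% of all genes.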

How the data were processed

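CUT&RUN peaks of H3K4me1 and H3K4me2 in wild-type embryoid bodies came as 1 list per library, with the mark, stage and replicate number read from the titles. Each list, as deposited by the authors, names each peak by position and MACS number and adds a score, which was at least 50 throughout and served here to order peaks inside 1 list. Per the submitters' processing notes, reads were processed on mm10 with a set of tools that included MACS2, Bowtie2, HOMER 4.10, SAMtools 1.5, deepTools and bedtools. The peak threshold, any control library, the treatment of duplicate reads and the depth were not given in the sources used here.

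Here 4 peaks off chromosomes 1 to 19, X and Y were set aside, and overlapping peaks of the 4 lists were merged with Python 3.11.15, numpy 2.4.6 and pandas 2.3.3. Merging, overlap and distance functions were tested on simulated intervals. Genes, starts and promoter sequences are RefSeq's on GRCm38.p6, which has the coordinates of mm10; exons and UTRs were not resolved. All 278 genes of 16 lists matched. Libraries were compared by two-sided exact permutation over the 6 assignments of 2 and 2 libraries, and Wilson intervals (95%) cover counting error only. Named were, per class, the 10 regions at a gene end and the 5 over 50 kb away with the highest lower score rank, leaving out regions with a PRDM16-antibody peak in a KO embryoid body list (3 H3K4me1-only, 56 H3K4me2-only and 36 of all 4 lists), the 5 widest, and members of the gene lists; other genes named were chosen after their values were seen, and some regions and list members are not reported here. The classes, lists and tests were chosen with earlier results of these data known. Alternatives were equal list lengths, only the higher-scoring 50% of peaks, base pairs in place of peaks, 50% coverage of a region, merging within 1000 bp, windows of 1000 and 10000 bp, the annotated start, each library left out and the replicate number as a block.

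The correlation over 31417 regions of the replicate 1 minus replicate 2 difference in covered share, between the marks, was 0.0253.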

Additional observations from a re-analysis of the deposited data

Results flagged for a closer look

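PRDM16-antibody peaks, which the comparison of the marks does not use, were more frequent in H3K4me1-only regions in the wild-type than in the Prdm16 KO embryoid body lists. The mean of the wild-type lists was 0.198% of the 3278 regions, from 3 and 10 regions in replicates 1 and 2, against 2 regions in each KO list. The wild-type lists held 146 and 258 PRDM16 peaks and the KO lists 173 and 187. Over all 31417 regions the shares were 0.267% and 0.532% in the wild-type lists and 0.328% and 0.277% in the KO lists, so wild-type replicate 2 was the highest list there too, and the H3K4me1-only share lay below that of all regions in each list. In H3K4me1-only regions the lists differed by 1 to 8 regions, and the Wilson interval of wild-type replicate 1 (0.0311 to 0.269%) holds the KO value of 0.0610%. For H3K4me2-only regions (15 and 67 against 29 and 30) and regions of all 4 lists (34 and 40 against 36 and 27) the wild-type and KO lists overlapped.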

How the results depend on the processing

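Alternatives numbered 96 over 11 results, and 0 reversed. Of the 60 for classes, gene counts and the difference in gene-end share between classes, 37 stayed close to the reported value and 23 moved. Close meant within 1.5-fold for a count and inside 61.8 to 64.8 points for the difference. The other 36, for peak number, gene-end share of peaks, peak width, start coverage and X share, were read for direction only, and each kept it. Sizes varied: the log2 ratio of peak number was 0.07 without H3K4me2 replicate 2 and 0.93 with base pairs, against 0.28. Leaving out 1 library could not reverse marks that do not overlap. The block keeps each mean, and halved lists the ratio of peak numbers, by construction. These directions therefore do not measure stability, and neither does an exact permutation p that cannot fall below 0.333. The higher-scoring 50% of each list gave 5418 H3K4me2-only regions, 483 regions of all 4 lists and a difference in gene-end share of 69.5 points, equal list lengths a difference of 66.7 points. At 50% coverage of the region there were 743 regions of all 4 lists and a difference of 65.4 points. The difference was 65.5 points with windows of 1000 bp, 55.7 with 10000 bp and 56.6 with annotated starts only. Leaving out 1 library in turn gave 3467 to 7692 H3K4me1-only regions, 2562 to 4028 regions of all 4 lists, 502 to 791 genes with H3K4me1 alone and a difference of 50.1 to 64.7 points. With the replicate number as a block (each pairing of 1 library per mark, mean of both) there were 8733 H3K4me1-only regions, 4840.5 regions with both marks, 1036 genes with H3K4me1 alone and a difference of 55.9 points. The block asks for 1 list per mark, so larger classes follow from its construction; it left the tested values as they were (p = 0.5 by exact permutation, the smallest possible), and the numbers were not shown to pair the samples. Peak number at equal list lengths has no value. Classes and gene counts thus depend on the number of lists required and on the score threshold. Depth, unknown here, limits each statement about a missing peak.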
